A study of Mus musculus with 2 samples.

Results

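Genes long described as targets of vitamin D signalling were examined for binding of the vitamin D receptor (VDR) in fetal mouse heart. The genes were listed by symbol, and all 35 were found among the 21887 protein-coding genes placed on assembled chromosomes in the RefSeq table of GRCm38.p6, the build that mm10 denotes. A gene was counted as having a peak when the summit, the position of highest signal in the peak, lay inside the gene span or within 10 kb of either end. Chromatin came from left ventricle of embryos at stage E16.5, whose mothers had received either a normal diet or one deficient in vitamin D. VDR-bound DNA was recovered by immunoprecipitation and sequenced (ChIP-seq), with 1 library per diet, so no difference between diets has a replicate check and no p-value is given. Neither strain, sex, maternal age nor the number of embryos pooled is stated in the labels. No transgene or other agent is named for either group, and a peak list holds no expression by which to check the tissue.

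VDR is a nuclear receptor. When occupied by the hormonal form of vitamin D it pairs with a retinoid X receptor and binds response elements, typically a pair of similar half-sites in the same orientation, and recruits cofactors that raise or lower transcription of nearby genes. Its best known targets serve calcium and phosphate transport in gut and kidney, bone turnover, arrest of cell growth and innate immunity. Many of these genes are known mainly from gut, kidney, bone or myeloid cells, not heart muscle, and binding of a receptor near a gene is not a measure of that gene's expression.

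The normal-diet list held 23456 usable peaks and the deficient-diet list 37661. The background fragment count read from the lists was 2.65 per position (normal diet) and 5.38 (deficient diet), so the second was the deeper. Where a peak stood on that genome-wide background, the lowest summit pileup (fragments covering the summit) that was listed was 11 with the normal diet, 4.15 times background, and 16 under the deficient diet, 2.97 times background. A gene without a listed peak may therefore still have had fragments below these levels. Peak heights describe and rank peaks within a list, except where these lowest ratios are set beside the other list. Pileups of the lists that are printed side by side come from libraries of different depth and are not a comparison of the diets.

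Promoter windows, taken as 250 bases before to 50 after a RefSeq start site, were matched for 31 of the 35 genes, with Calb1, Lrp5, Cd14 and Thbd unmatched. A peak of either list reached into this window at 4 of the 31 (12.9%), Pthlh, Cdkn1b, Bglap and Trpv6, where 13.1% of 17492 protein-coding genes had one, and at Trpv6 by only 4 bases. The first 3 are printed because they are the promoters that a peak covered most, with the bases inside the peak in capitals and the coding strand read 5′ to 3′. At Pthlh, which encodes parathyroid hormone-related protein, a deficient-diet peak covered 85 bases of the window chr6:147263964-147264263 on the minus strand. At Cdkn1b, which encodes the cell-cycle inhibitor p27, a normal-diet peak covered 172 bases of chr6:134920151-134920450 on the plus strand. At Bglap, which encodes the bone matrix protein osteocalcin, a deficient-diet peak covered 43 bases of chr3:88384417-88384716 on the minus strand.
Pthlh: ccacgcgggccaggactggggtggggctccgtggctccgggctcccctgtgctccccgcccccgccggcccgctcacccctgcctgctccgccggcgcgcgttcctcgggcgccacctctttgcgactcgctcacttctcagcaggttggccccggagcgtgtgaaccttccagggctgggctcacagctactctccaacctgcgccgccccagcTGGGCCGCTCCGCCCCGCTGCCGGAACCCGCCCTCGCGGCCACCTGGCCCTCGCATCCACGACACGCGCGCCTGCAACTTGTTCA
Cdkn1b: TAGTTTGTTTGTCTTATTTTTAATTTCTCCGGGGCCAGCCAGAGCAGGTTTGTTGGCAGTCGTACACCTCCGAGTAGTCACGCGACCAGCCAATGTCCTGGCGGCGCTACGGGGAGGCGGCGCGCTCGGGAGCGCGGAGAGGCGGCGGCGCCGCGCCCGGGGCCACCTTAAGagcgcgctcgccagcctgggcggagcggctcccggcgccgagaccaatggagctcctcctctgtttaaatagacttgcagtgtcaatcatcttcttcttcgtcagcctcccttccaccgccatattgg
Bglap: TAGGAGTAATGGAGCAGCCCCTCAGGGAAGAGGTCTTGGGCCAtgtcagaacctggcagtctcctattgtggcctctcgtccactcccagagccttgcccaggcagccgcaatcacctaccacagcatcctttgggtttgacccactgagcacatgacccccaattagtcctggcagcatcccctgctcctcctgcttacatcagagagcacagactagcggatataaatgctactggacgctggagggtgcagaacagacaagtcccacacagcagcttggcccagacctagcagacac

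Each window was searched on both strands for 4 half-sites of VDR response elements, namely AGGTCA, its variant GGGTCA, the form AGTTCA and its own variant GGTTCA, and for any 2 of them in the same orientation with a spacer of 3 bases, the arrangement called DR3. The DR3 is thus made of half-sites that were also counted singly. A half-site was present in 16 of the 33 windows of the 31 matched genes (48.5%). It was present in 43.7% of all 32851 promoter windows and in 41.2% of the 21263 windows of protein-coding genes. A DR3 was present in 0 of the 33 windows, in 13 of the 32851 (0.0396%) and in 8 of the 21263 (0.0376%). Bglap held 2 half-sites, beginning 112 and 96 bases before the start site, and Pthlh held 1, beginning 88 bases before it. Cdkn1b held none. In the printed windows of Bglap and Pthlh the half-sites lay outside the bases covered by the peak. Nfkbia and S100g held 3 half-sites each, and no peak covered either window.

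Of the 35 target genes, 21 (60%) had a normal-diet summit in the window, where 49.8% of all protein-coding genes had one, and 22 (62.9%) had a deficient-diet summit, where 59.5% did. Both lists had a summit at 17 genes (48.6%, against 40.7% of protein-coding genes), and neither had one at 9 (25.7%, against 31.3%). A normal-diet summit alone was found at 4 genes, Cdkn1b, Foxo1, Nfkbia and Cyp3a11 (11.4%, against 9.17%). A deficient-diet summit alone was found at 5, Calb1, Slc34a1, Slc34a3, Igfbp3 and Cebpb (14.3%, against 18.8%). The same site, meaning 2 peaks that overlapped by at least 1 bp, was held by both lists at 10 genes (28.6%, against 22.5%): Fgf23, Runx2, Sost, Klf4, Foxo3, Cebpa, Camp, Alox5, Thbd and Fbp1.

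The target genes were shorter than protein-coding genes as a whole, with a median span of 9395 bp against 17169 bp, and longer genes held a summit more often (a normal-diet summit at 18.1% of the shortest and 75.0% of the longest class). When each target gene was set beside the protein-coding genes of its own class, 1 of 10 of equal size by span, the background became 48.1% for a normal-diet summit, 57.6% for a deficient-diet summit, 38.4% for both and 21.1% for an overlapping pair. The target genes' shares thus stood 11.9, 5.27, 10.2 and 7.42 percentage points above those of genes of like length, which in numbers is 21 against 16.9, 22 against 20.2, 17 against 13.4 and 10 against 7.40 genes. The differences come to 4.15, 1.85, 3.55 and 2.60 genes, and no test was made of them. The genes were chosen with earlier results of these data known, so the differences are not independent of the choice. The differences did not hold at a deposited fold enrichment of 4 or more. There 13 genes (37.1%) had a normal-diet summit, against 42.3% of protein-coding genes, and 3 (8.57%) a deficient-diet summit, against 14.8%. That cut lay below the median fold enrichment of the normal-diet list (4.38) and above that of the deficient-diet list (3.45). At a deposited -log10 q of 5 or more the numbers were 11 (31.4%, against 24.5%) and 7 (20%, against 25%). At this second cut the normal-diet share thus stayed above the background and the deficient-diet share fell below it.

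**Figure D1:**
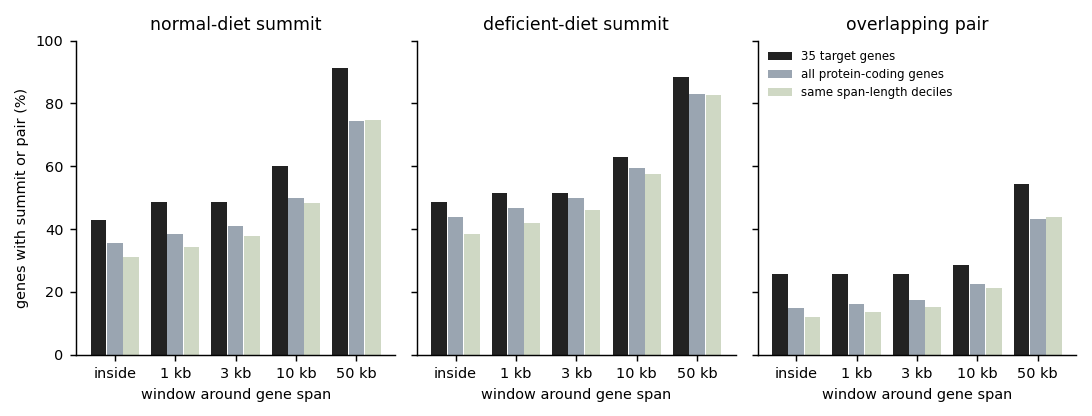
Percentage of genes (vertical axis) with a normal-diet summit, a deficient-diet summit or an overlapping pair, for summits inside the gene span and for windows of 1, 3, 10 and 50 kb around it (horizontal axis). Dark bars are the 35 target genes, grey bars all protein-coding genes and pale bars protein-coding genes of the same span-length classes; at 10 kb the dark bars stand at 60%, 62.9% and 28.6%.

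The overlapping pairs lay mostly inside the genes. An overlapping pair with both summits inside the span was found at 9 of the 35 genes (25.7%), against 14.7% of protein-coding genes and 12.1% at like span length. A normal-diet summit lay inside the span at 15 genes (42.9%, against 35.4% and, at like length, 31.0%), and a deficient-diet summit at 17 (48.6%, against 43.8% and 38.4%). A window of 50 kb took in a normal-diet summit at 32 genes (91.4%, against 74.5%), a deficient-diet summit at 31 (88.6%, against 82.9%) and an overlapping pair at 19 (54.3%, against 43.1%). Around the start sites of the 31 matched genes the shares were close to those of other genes. A normal-diet summit lay within 1 kb of a start site at 6 genes (19.4%, against 17.1% of 17492 protein-coding genes), a deficient-diet summit at 5 (16.1%, against 18.8%), and both at 2, Fbp1 and Pthlh (6.45%, against 7.2%).

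In total, the windows held 40 normal-diet and 53 deficient-diet peaks, which formed 12 overlapping pairs at the 10 genes. That is 30% of the normal-diet peaks at these genes, where 34.0% of the whole list had a partner, and 22.6% of the deficient-diet peaks, where 21.3% did. The summits of a pair lay 13 to 643 bp apart (median 95 bp), within 100 bp in 6 of the 12. For 37 of the 40 and 46 of the 53 peaks, the target gene was the nearest protein-coding gene to the summit, with ties given to the target gene. In 30 of the 40 and 37 of the 53 the summit lay inside the target gene, which is then nearest by construction. No share for the windows of other genes is given.

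**Figure D2:**
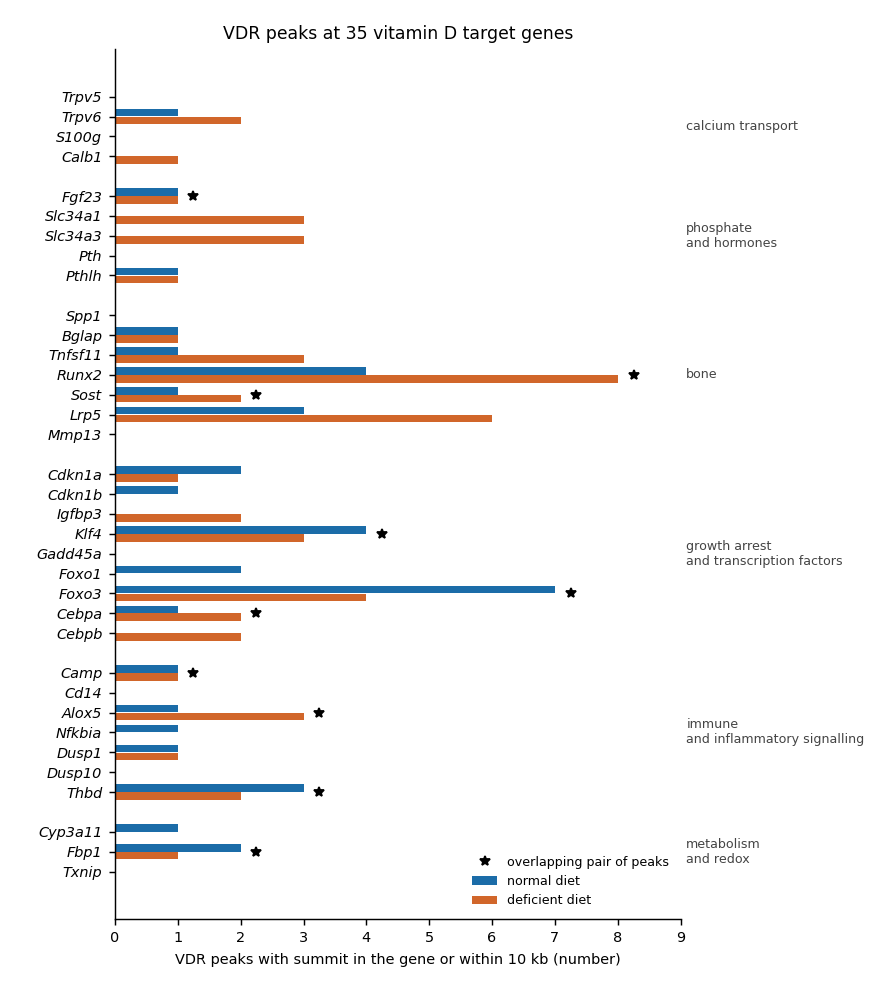
Number of VDR peaks (horizontal axis) with a summit in each target gene or within 10 kb of it, by role, with blue bars for the normal-diet and orange bars for the deficient-diet list. Stars mark the 10 genes where peaks of both lists overlap; Runx2 has the most deficient-diet peaks (8) and Foxo3 the most normal-diet peaks (7), and 9 genes have neither.

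Of the 4 genes of calcium transport, 1 had a normal-diet and 2 a deficient-diet summit, where genes of like span length gave 1.98 and 2.34. Trpv5 and Trpv6, the epithelial calcium channels of kidney and gut, are neighbours on chromosome 6. At Trpv6 there was 1 normal-diet peak, far into the gene at 13568 bp from the start site, with a pileup of 13 fragments. The deficient-diet list had 2 peaks there, with pileups of 21 and 23. The taller of these, 482 bp wide, had its summit 335 bp after the start site, and the other lay beyond the far end of Trpv6, in the span of Ephb6. At Trpv5 neither list had a summit within 10 kb, the nearest being 28824 bp (normal diet) and 15591 bp (deficient diet) away. S100g, which encodes the calcium-binding protein calbindin-D9k and lies on X, had none either, with nearest summits at 14245 and 73886 bp. Calb1, encoding calbindin-D28k, had a single deficient-diet peak of 22 fragments at one end of its span, and its nearest normal-diet summit was 19211 bp away. No calcium transport gene had an overlapping pair, where genes of like length gave 0.805.

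Among the 5 genes of phosphate handling and hormones, 4 had a deficient-diet and 2 a normal-diet summit, where genes of like span length gave 2.89 and 2.43. Fgf23, the bone-derived hormone that lowers blood phosphate, had 1 peak in each list at the same site, from 127080188 to 127080425 and from 127080119 to 127080385 on chromosome 6. The pileups were 17 fragments (normal diet; 95% Poisson interval 9.90 to 27.2) and 22 fragments (deficient diet; 13.8 to 33.3). Poisson intervals cover counting error only, and these summits were listed because they had passed the peak threshold. The deficient-diet library was the deeper, so the 2 pileups are not compared. The summits lay 7451 and 7350 bp after the start site, inside the gene. Slc34a1 and Slc34a3 encode the sodium-phosphate cotransporters of the kidney, and each had 3 deficient-diet peaks and no normal-diet peak. The strongest, at Slc34a1 from 55413244 to 55413433 on chromosome 13, had 27 fragments and a deposited -log10 q of 6.97, within the top 5.36% of its list. The other 2 peaks in each of these windows had summits in neighbouring genes (Pfn3 and F12, and Rnf224 and Rnf208). The nearest normal-diet summits were 36851 bp from Slc34a1 and 28543 bp from Slc34a3.

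Pthlh, a hormone with local actions in developing tissues, had 1 peak in each list near its start site. The normal-diet peak had 13 fragments and its summit 653 bp after the start. The deficient-diet peak had 24 fragments and its summit 86 bp after the start, and it is the one that covers the end of the printed window. The 2 peaks were separated by 222 bp and did not overlap. Pth, the parathyroid hormone gene that vitamin D is known to repress, had no summit nearby, with the nearest at 102171 and 86499 bp. Pth was the gene farthest from any deficient-diet summit, and Spp1 the farthest from a normal-diet one.

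Bone genes held 10 normal-diet and 20 deficient-diet peaks, most of them in the long genes Runx2 and Lrp5. Per gene this was 1.43 and 2.86 summits, against 1.05 and 1.62 for genes of like length. Runx2, the transcription factor that directs osteoblast formation, spans 318811 bp and had 4 normal-diet and 8 deficient-diet peaks. The normal-diet pileups were 16, 18, 16 and 17 fragments, and the deficient-diet pileups ran from 18 to 25. At least 8 deficient-diet summits were found at 11.8% of genes in the same length class, and at least 4 normal-diet summits at 19.2%. A single site was common to both lists, with summits 79910 bp (17 fragments) and 79767 bp (20 fragments) after the start site. A pair of further deficient-diet summits followed it at 79269 and 78720 bp, so 3 deficient-diet peaks stood side by side.

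Lrp5, a Wnt co-receptor that governs bone mass, had 3 normal-diet and 6 deficient-diet peaks inside its span and none that overlapped. The peak from 3660797 to 3661233 on chromosome 19 was the strongest normal-diet peak of all target genes, with 24 fragments over a background of 2.65 and a -log10 q of 11.4, within the top 1.65% of the list. The nearest deficient-diet summit to it lay 8188 bp away. The other normal-diet peaks of Lrp5 had 16 fragments each, and the deficient-diet pileups ran from 18 to 23.

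Sost, the bone-cell inhibitor of Wnt signalling, had overlapping peaks 2811 bp (normal diet, 19 fragments) and 2889 bp (deficient diet, 26 fragments) after its start site, inside the gene. The normal-diet peak was 515 bp wide. A second deficient-diet peak of 20 fragments lay 4668 bp beyond the gene. Tnfsf11, which encodes the osteoclast factor RANKL, had 1 normal-diet peak of 12 fragments, 731 bp beyond the span. The nearest of its 3 deficient-diet peaks had its summit 604 bp from that one, without overlap. Bglap had a deficient-diet peak of 17 fragments, 269 bp before its start site, and a normal-diet peak of 16 fragments that lay nearer to its paralog Bglap2. Bglap belongs to a cluster of similar genes, between which reads may have been split, so both peaks are uncertain. Spp1, encoding osteopontin, and Mmp13, a collagenase, had no summit in the window. The nearest deficient-diet summit to Spp1 was at 18902 bp and the nearest normal-diet one at 103843 bp. At Mmp13 the nearest peaks of the lists overlapped, 17270 and 17261 bp from the gene.

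Growth-arrest genes and transcription factors, with 9 members the largest group, held 17 normal-diet and 14 deficient-diet peaks and 5 of the 12 overlapping pairs. Per gene this was 1.89 and 1.56 summits, against 0.894 and 1.33 for genes of like length. Foxo3, with 7, and Klf4, with 4, supplied most of the normal-diet peaks. Klf4, a factor that restrains proliferation in epithelium and vessel wall, had its peaks clustered in a gene of 5339 bp. The normal-diet list had summits 1225, 1593 and 2091 bp after the start site, with pileups of 20, 16 and 16 fragments. The deficient-diet list had summits at 1141, 1837 and 2311 bp, with 20, 24 and 23 fragments. The first and second of each series overlapped, by 189 and 13 bp, and the third were 102 bp apart without overlap. Another normal-diet peak, of 18 fragments, lay 4786 bp before the start. In the same length class, 3.34% of genes had 4 or more normal-diet summits, 16.9% had 3 or more deficient-diet summits, and 4.34% had 2 or more overlapping pairs.

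Foxo3, a stress-responsive factor of growth arrest and atrophy, had 7 normal-diet and 4 deficient-diet peaks. A count of 7 or more normal-diet summits was reached by 2.65% of genes of like length, and 2 or more pairs by 7.04%. The normal-diet pileups ran from 11 to 18 fragments and the deficient-diet pileups from 20 to 26. One shared site lay inside the gene, 8244 bp (11 fragments) and 8373 bp (22 fragments) after the start site, and the other 1085 bp (14 fragments) and 1238 bp (24 fragments) before it. Its relative Foxo1 differed, with 2 normal-diet peaks of 16 and 18 fragments, 490 bp before and 1606 bp after the start site. No deficient-diet summit lay within 46013 bp of Foxo1.

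Cebpa, a factor of adipocyte, liver and myeloid differentiation, had overlapping peaks inside the gene, with summits 1336 bp (18 fragments, normal diet) and 1304 bp (21 fragments, deficient diet) after the start. A second deficient-diet peak of 23 fragments lay 1273 bp before it. Cebpb, its stress-induced relative, had 2 deficient-diet peaks of 21 and 24 fragments outside the gene, 8905 and 5417 bp away, and no normal-diet summit within 34274 bp. Cdkn1a, encoding the cell-cycle inhibitor p21, had 2 normal-diet peaks inside the gene, 584 and 4765 bp after a start site, with 16 and 21 fragments. Its single deficient-diet peak, of 27 fragments, lay 5568 bp before the gene, so the lists did not share a site. At Cdkn1b the normal-diet peak of 13 fragments had its summit 257 bp before the start, and the nearest deficient-diet summit was 58213 bp away. Igfbp3, a carrier of insulin-like growth factors, had 2 deficient-diet peaks of 23 and 21 fragments, 2473 and 381 bp after the start, and no normal-diet summit within 33478 bp. Gadd45a, a growth-arrest and DNA-damage gene, had no peak in its window, and the closest summits were at 25798 and 26299 bp.

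**Figure D3:**
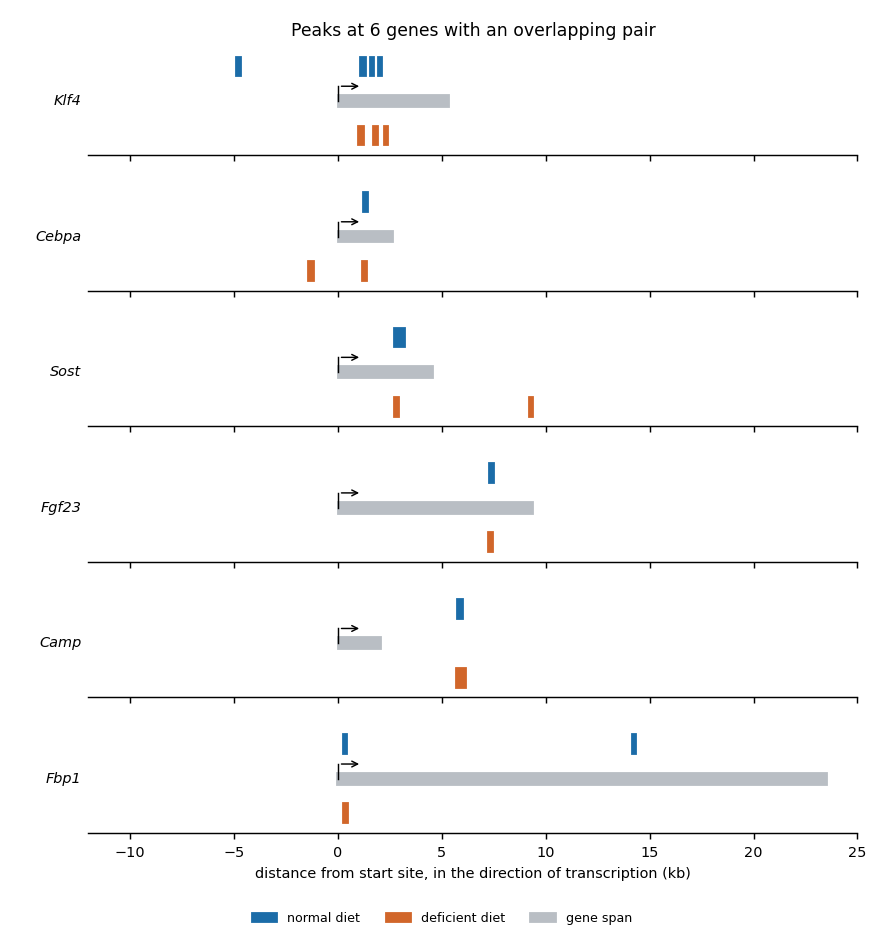
Peaks of the normal-diet (blue, above) and deficient-diet list (orange, below) at 6 target genes with an overlapping pair, by distance from the start site in kb along the direction of transcription. Grey bars are gene spans and arrows mark the start; at Klf4, 3 peaks of each list stand between 1141 and 2311 bp after it.

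Immune and inflammatory genes, 7 in number, held 7 peaks in each list. Per gene this was 1 summit in each list, against 0.870 (normal diet) and 1.28 (deficient diet) for genes of like length. Camp encodes cathelicidin, an antimicrobial peptide. Its human gene is a well-known VDR target through an element that mice lack. In these lists the Camp window held 1 overlapping pair, beyond the end of the gene by 3743 bp (normal diet, 17 fragments) and 3676 bp (deficient diet, 28 fragments). The nearest protein-coding gene to both summits was Nme6, not Camp. The deficient-diet peak ranked within the top 6.70% of its list with a -log10 q of 6.96, and the pair was 1 of 2, with that at Thbd, in which both peaks had a -log10 q of 5 or more.

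Thbd, encoding the anticoagulant receptor thrombomodulin, had 3 normal-diet and 2 deficient-diet peaks. Inside the gene, a normal-diet peak 819 bp wide (19 fragments) overlapped a deficient-diet peak of 24 fragments, with summits 643 bp apart. A further normal-diet peak of 17 fragments lay inside the gene, and 1 peak of each list lay in the neighbouring gene Sstr4, 500 bp apart by summit. Alox5, encoding the leukotriene enzyme 5-lipoxygenase, had 1 normal-diet peak of 13 fragments that overlapped a deficient-diet peak of 20 fragments, 50511 and 50422 bp after the start site, near the far end of the gene. A pair of other deficient-diet peaks, of 17 and 23 fragments, lay close by. Nfkbia, the inhibitor of NF-kappaB, had 1 normal-diet peak of 19 fragments, 225 bp after the start site, and no deficient-diet summit within 35888 bp. Dusp1, a phosphatase that shuts off MAP kinases, had 1 peak in each list, 3809 and 7736 bp from the gene on opposite sides. Its relative Dusp10 had none, and the nearest peaks of the lists overlapped 79494 and 79461 bp away. Cd14, the lipopolysaccharide co-receptor, also had none, with the nearest at 33576 and 37363 bp.

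Of the 3 genes of metabolism and redox control, Fbp1, encoding the gluconeogenic enzyme fructose-1,6-bisphosphatase, had the pair whose summits were the closest of all 12. The normal-diet peak (16 fragments, 95% Poisson interval 9.15 to 26.0) and the deficient-diet peak (22 fragments, 13.8 to 33.3) had summits 390 and 403 bp after the start site, 13 bp apart. A second normal-diet peak of 19 fragments lay 14255 bp into the gene. Cyp3a11, a drug- and steroid-metabolizing enzyme in a cluster of similar genes, had 1 normal-diet peak of 16 fragments, 5997 bp before its start, and no deficient-diet summit within 43210 bp. Txnip, the thioredoxin inhibitor known from early work on vitamin D induction, had none in its window, and its nearest deficient-diet summit was just outside, at 10854 bp.

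**Figure D4:**
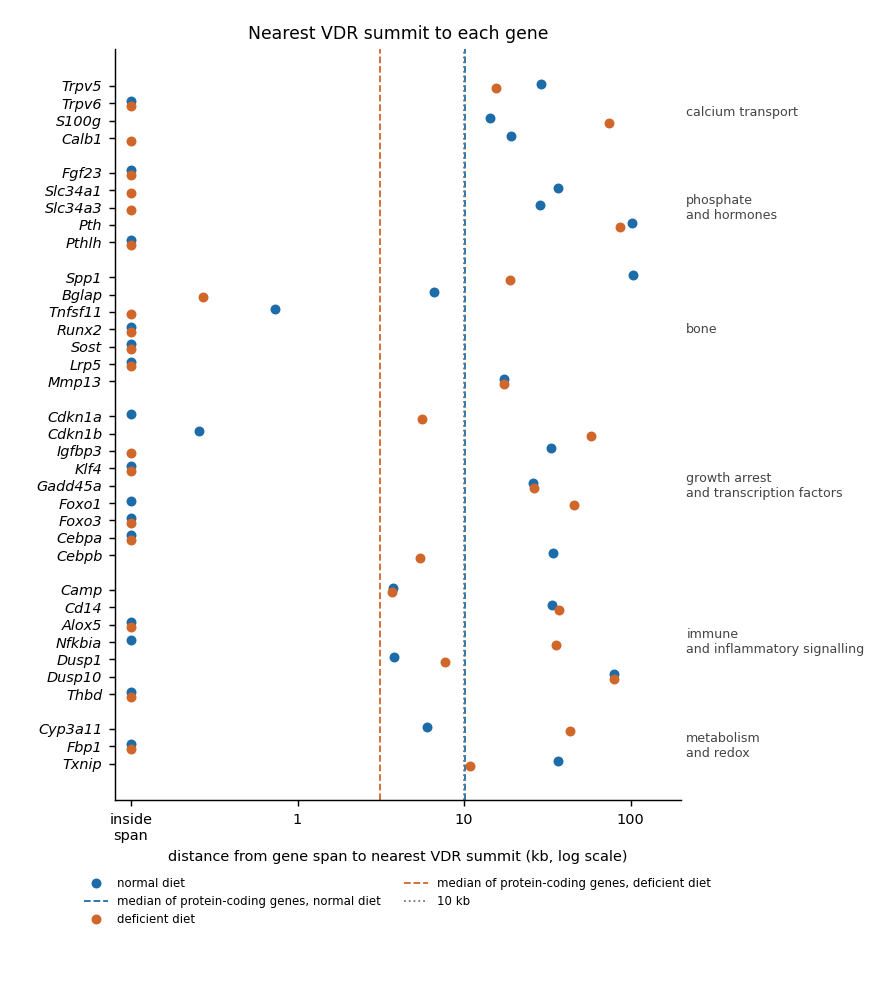
Distance in kb (log scale) from each gene span to the nearest normal-diet (blue) and deficient-diet (orange) summit, with summits inside the span drawn at the left. Dashed lines are the medians of all protein-coding genes, 10142 bp (normal diet) and 3113 bp (deficient diet), and the dotted line marks 10 kb.

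Measured as distance to the nearest summit, the target genes had a median of 3743 bp for the normal diet, against 10142 bp for protein-coding genes. For the deficient diet it was 269 bp, against 3113 bp. Each median is the distance of 1 gene, Camp for the normal diet and Bglap, whose peaks are uncertain, for the deficient diet. The next larger deficient-diet distance was 3676 bp (Camp), above the median of protein-coding genes. Against the median of its own length class, 21 of the 35 genes were nearer to a normal-diet summit and 17 to a deficient-diet summit, while 1 and 4 were equal to it. The farthest nearest-summits still inside the window were 6576 bp (Bglap, normal diet) and 7736 bp (Dusp1, deficient diet), and the closest outside it were 14245 bp (S100g) and 10854 bp (Txnip). At the 9 genes with a summit of 1 list alone, the other list's nearest summit was at least 19211 bp away (Calb1), so none lay just outside the window. Distances between listed summits cannot show whether the other list had fragments there below its listed levels.

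At the target genes, the median pileup was 16 fragments (normal diet) and 22 (deficient diet), equal to the medians of the whole lists, and the extremes were 11 to 24 and 17 to 28. The median -log10 q was 4.59 at the target genes against 4.49 in the whole normal-diet list, and 3.95 in both for the deficient diet. A -log10 q of 5 or more was held by 14 of 40 normal-diet peaks (35%, against 34.95% of the list) and by 7 of 53 deficient-diet peaks (13.2%, against 24.3%). The strongest 10% of the list took in 3 normal-diet (7.5%) and 2 deficient-diet peaks (3.77%), and the median rank lay 47.5% and 59.4% of the way down the list. Local background at these summits did not exceed 1.94 times (normal diet) or 1.62 times (deficient diet) the genome-wide value.

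Of the 41 deficient-diet peaks without a partner, 22 stood on the genome-wide background, and 14 of those had a pileup under 4.15 times background, the lowest ratio listed there for the normal diet. By definition, no peak of so low a ratio on that background is in the normal-diet list. Of the 28 normal-diet peaks without a partner, 12 stood on the genome-wide background. Among those 12, 0 were under 2.97 times background, the lowest ratio listed there for the deficient diet. No share over all peaks without a partner is given beside these counts, and why a peak lacked a partner was not tested.

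**Figure D5:**
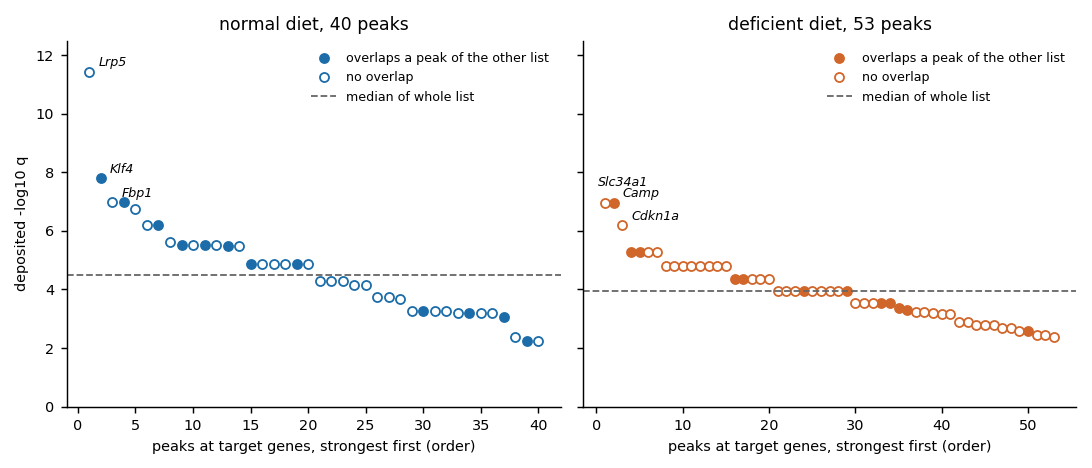
Deposited -log10 q (vertical axis) of each peak at a target gene, strongest first (horizontal axis, order), for the 40 normal-diet and 53 deficient-diet peaks. Filled points overlap a peak of the other list, dashed lines are the whole-list medians (4.49 and 3.95), and the Lrp5 peak at 11.4 stands above the rest.

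Other genes of the pathway, 20 in all, were the receptor and its partners, the enzymes that make and break down the hormone, its carrier and uptake proteins, and coregulators. These genes, too, were chosen with earlier results of these data known. A normal-diet summit lay in the window at 15 of them (59.2% of genes of like length had one) and a deficient-diet summit at 16 (69.2%), with an overlapping pair at 10 (28.7%). Cyp24a1, the hormone-degrading enzyme and the most strongly induced VDR target in many tissues, had 2 peaks in each list with 1 overlapping pair, all outside the gene. Cyp27b1, which makes the active hormone, had 3 normal-diet peaks and no deficient-diet summit within 24996 bp. Neither list had a summit near Cyp2r1 or Gc.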

How the data were processed

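The 2 deposited peak lists were used, 1 library per maternal diet, in the narrowPeak layout on mm10, per the file headers. The submitters' processing notes name MACS2 and SAMtools, and the aligner, the threshold and the control library are not given in the sources used here. Each peak carries the authors' fold enrichment (a ratio over local background), -log10 p-value and -log10 q-value, and in the deficient-diet list an integer score as deposited, which was not used. In the normal-diet list, end and score were joined by a point in 23455 peaks and were split, and 1 peak without a start was left out, which left 23456 of 23457.

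Summit pileup and background were recovered from fold enrichment, taken as pileup plus 1 over background plus 1, and the Poisson p-value. A whole-number pileup matched the deposited -log10 p within 0.000293 in every peak. Depth was read from the lowest background of each list. Summits were placed against RefSeq spans of GRCm38.p6, and promoter sequences and start sites came from RefSeq on the same build. Span-length classes were 10 equal parts of the 21887 protein-coding genes. Counting code was tested on simulated data (Python 3.11.15, SciPy 1.17.1).

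The genes, the roles and the list of other pathway genes were chosen with earlier results of these data known. Named in full were overlapping pairs, peaks within 1 kb of a gene end, and the strongest peak of each list at a gene. Alternatives were minimum -log10 q or fold enrichment, lists of equal length, other windows, the nearest gene, crowded windows left out, and stricter pairing. No test between diets is possible with 1 library each. Peak sequences need a genome, which was not used here.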

Additional observations from a re-analysis of the deposited data

How the results depend on the processing

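Of 38 counts recomputed under 11 other settings, 25 stayed within 1.5 times of the reported count and 13 did not. In 33 the target genes' share was above that of genes of like span length. All the recomputed counts come from the same genes and peak lists, so they are not independent of each other or of the reported counts. Genes with a normal-diet summit, a deficient-diet summit, both and an overlapping pair, reported as 21, 22, 17 and 10, became 11, 7, 5 and 2 at a -log10 q of 5 or more, and 13, 3, 2 and 1 at a fold enrichment of 4 or more, fewer by construction. At a fold enrichment of 4 or more all 4 shares were below those of genes of like length, and so was the deficient-diet share at a -log10 q of 5 or more (20% against 22.9%). A window of 50 kb gave 32 genes with a normal-diet summit, 30 with both and 19 with a pair, more by construction. Summits within 100 bp gave 6 genes with a pair, and overlap by 50% of both peaks also 6. Equal list lengths put the deficient-diet count at 19 and the pair count 7. Leaving out crowded windows left the 4 counts at 21, 22, 17 and 10. With all genes of the table as background, 35.4% had a normal-diet and 44.6% a deficient-diet summit. No paired analysis was possible because there is a single library for a diet, which also bars leaving one out. Peaks resting on 11 to 28 fragments limit how firmly a site can be called absent from either list.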

Other observations

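Base composition of the promoters was set beside the position of the peaks. The 10 promoter windows of the 9 genes with a summit of either list within 1 kb of a start site had a median GC content of 61.2% (51.3 to 74%) and a median of 19 CpG dinucleotides. The 23 windows of the other 22 genes had a median of 56.7% (36.7 to 80.7%) and 6 CpG dinucleotides, so the ranges overlapped. No test was made.

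The nearest peaks of the lists were the same site at 2 of the 9 target genes without a summit in their windows, Mmp13 and Dusp10, where the summits lay 9 and 33 bp apart. At Gadd45a they lay 501 bp apart without overlap. No such share was computed for other genes that lack a summit, so whether 2 of 9 is many or few was not tested. Overlap was common genome-wide, with a partner for 34.0% (normal diet) and 21.3% (deficient diet) of each whole list.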
